A study of Mus musculus with 8 samples.

Results

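The autophagy and mitophagy machinery was followed in mouse hearts with and without a deletion of an enhancer of Actn2, the gene of the sarcomeric protein alpha-actinin-2. The set holds 41 genes, taken from the count table by symbol, of 24516 genes in all. Of these, 40 had enough reads to be tested, among 15075 tested genes. The gene left out, Atg4a, had 0 to 8 counts per library. Whole hearts were taken at postnatal day 40 from 1 litter, and total RNA was sequenced in bulk. The study compared 2 wild-type hearts with 3 hearts heterozygous and 3 hearts homozygous for the enhancer deletion, which had been made with CRISPR/Cas9. The labels used here give no strain, sex or founder line.

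Macroautophagy encloses cytoplasm in a double membrane, the autophagosome, which then fuses with a lysosome. The ULK1 kinase complex starts the process and a class III PI3-kinase complex marks the membrane with a phosphoinositide. WIPI proteins read that mark, and ATG2 and ATG9 proteins supply lipid. A pair of ubiquitin-like conjugation reactions then attaches ATG8 proteins (LC3 and GABARAP) to the membrane, where cargo receptors bind them. Mitophagy is the removal of mitochondria by the same route, through receptors on the outer mitochondrial membrane. The heart depends on both, since its muscle cells are long-lived and packed with mitochondria, and loss of LAMP2 in people causes Danon disease, a cardiomyopathy with accumulated autophagic vacuoles.

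Levels are given as CPM (counts scaled to a library of 1e+06) after TMM scaling, and differences as log2 fold changes with the standard error (SE) of 1 edgeR fit over all 8 libraries. A gene was said to have risen or fallen where its Benjamini-Hochberg adjusted p over all 15075 genes was under 0.05. Libraries held 22230090 to 55902737 counts. The wild-type pair was less alike (r = 0.952 across genes) than pairs of deletion libraries (0.969 to 0.982), and on the first principal component wild type 2 scored 98.7, wild type 1 32.5 and the 6 deletion libraries -24.1 to -16.7. Xist marked 4 libraries as female (heterozygous 2 and 3, homozygous 2 and wild type 2), so each genotype held both sexes. Actn2 itself (chr13:12269426-12340760) stood at 2187 and 2703 CPM in wild type, 1693, 1546 and 1638 in heterozygous and 2115, 1611 and 1791 in homozygous hearts. It fell in heterozygous hearts (-0.59 ± 0.16 (SE, adjusted p = 0.0193)), a call lost without wild type 2 (adjusted p = 0.128), heterozygous 2 (0.0725) or heterozygous 3 (0.0595), and with only the groups compared (0.0536). It was also lost (-0.33, 0.141) after the gene property correction, a fit that removes the trends of each library with GC content and with the lengths of transcript and 3' UTR. It was -0.41 ± 0.16 (SE, adjusted p = 0.0771) in homozygous hearts, and 0.02 was its adjusted p without wild type 1. Cardiomyocyte markers summed to 76946 to 86957 CPM in wild type, 69900 to 72766 in heterozygous and 69558 to 76163 in homozygous hearts. Of 5 tested atrial markers, 4 fell in both deletion genotypes, and the sum of all 6 was 327 to 584 CPM in wild type, 98.8 to 421 in heterozygous and 107 to 366 in homozygous hearts. Of 6 endothelial markers, 2 fell in both, with sums of 1055 to 1067, 730 to 863 and 752 to 976 CPM. Of 6 smooth muscle and pericyte markers, 4 fell in heterozygous and 3 in homozygous hearts, while 0 of 7 fibroblast markers were called. The adipocyte markers (5 genes) summed to 934 to 1284 CPM in wild type, 635 to 1071 in heterozygous and 611 to 782 in homozygous hearts, and 1 of the 2 tested fell in each. The skeletal muscle markers (6 genes) summed to 1959 to 2138, 1283 to 2220 and 1528 to 1623 CPM, with 0 of 3 tested called. Both sums were below wild type in every homozygous heart and overlapped it in heterozygous hearts. Of 8 macrophage markers 2 rose and 2 fell in homozygous and 3 rose and 1 fell in heterozygous hearts, with sums of 466 to 548 CPM in wild type, 491 to 512 in homozygous and 491 to 723 in heterozygous hearts, and 3 of 4 blood markers were at 0 in every library. Over all tested genes 15.3% rose and 12.4% fell in homozygous hearts, and 15.2% and 12.8% in heterozygous hearts. Each marker list holds too few genes to compare with these shares. The part of the marker shifts in the results was not tested, and in whole tissue fewer cells of a type and less RNA per cell cannot be told apart.

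Against wild type, Rb1cc1 of the ULK1 complex and the lysosomal gene Lamp2 rose most in both deletion genotypes, and Tfeb fell most. In homozygous hearts 10 of the 40 tested genes rose (Ulk1, Ulk2, Rb1cc1, Atg2b, Wipi1, Atg4c, Atg5, Tax1bp1, Fundc1 and Lamp2) and 3 fell (Atg2a, Gabarap and Tfeb). In heterozygous hearts 10 rose, with Nbr1 in place of Wipi1, and 4 fell (Atg2a, Map1lc3a, Sqstm1 and Tfeb). Over all tested genes 27.7% were called in homozygous hearts (15.3% higher and 12.4% lower) and 28.0% in heterozygous hearts (15.2% higher and 12.8% lower). The shares of the autophagy genes called were 32.5% and 35.0%, near these backgrounds, with 25% higher in each genotype and 7.5% and 10% lower. Their median log2 fold change was 0.08 in homozygous and 0.05 in heterozygous hearts, where all tested genes had medians of -0.03 and -0.03. The 24 genes called in neither genotype had log2 fold changes of -0.52 to 0.52 in homozygous and -0.36 to 0.44 in heterozygous hearts. In 14 of the 41 genes all 6 deletion hearts lay above both wild-type hearts, and in 7 they lay below both. The same held for 22.1% and 20.7% of all tested genes. Both comparisons use the same 2 wild-type hearts, so the genotypes' values are set side by side and are not independent of each other.

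**Figure D1:**
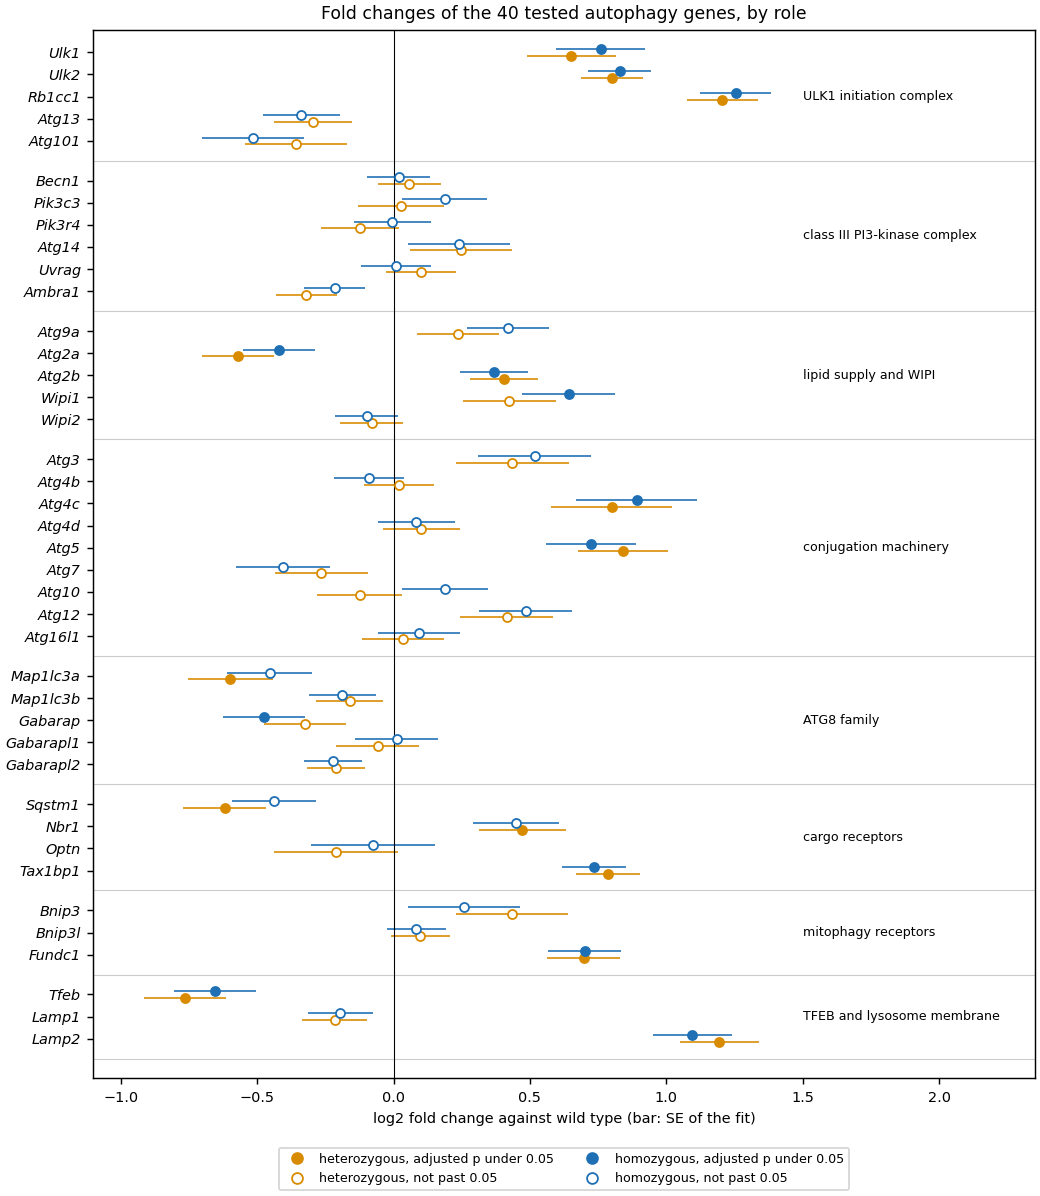
Log2 fold change against wild type (x axis) of each of the 40 tested autophagy genes (y axis), grouped by role, for heterozygous (orange) and homozygous (blue) hearts. Bars are the SE of the fit and filled points have an adjusted p under 0.05. Rb1cc1 and Lamp2 lie farthest to the right in both genotypes and Tfeb farthest to the left. The class III PI3-kinase genes all have open points, of which Ambra1 lies lowest (-0.22 in homozygous and -0.32 in heterozygous hearts).

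Of the 5 members of the initiation complex, 3 rose in each deletion genotype and 0 fell. Over all tested genes 15.3% rose in homozygous and 15.2% in heterozygous hearts, and 5 genes are too few to compare with these shares. After the gene property correction the heterozygous rise of Rb1cc1 was not called (0.43, adjusted p = 0.0576). Rb1cc1 (ENSMUSG00000025907.14, chr1:6206197-6276648, plus strand, GRCm38) encodes FIP200, the scaffold that holds the ULK1 complex together. Its levels were 62.6 and 65.98 CPM in wild type, 155, 138 and 151 in heterozygous and 144, 143 and 173 in homozygous hearts. The lowest deletion heart was 138 CPM and the higher wild-type heart 65.98, so the groups did not overlap. Rb1cc1 rose by 1.25 ± 0.13 (SE, adjusted p = 0.000287) in homozygous and 1.21 ± 0.13 (SE, adjusted p = 0.000306) in heterozygous hearts on the log2 scale, which is 2.39-fold and 2.31-fold.

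Ulk1 and Ulk2 encode the kinases of that complex, which phosphorylate its other subunits and the PI3-kinase complex. Ulk2 (ENSMUSG00000004798.14, chr11:61775649-61855073, minus strand) stood at 90.7 and 84.01 CPM in wild type, 149.6, 151 and 156 in heterozygous and 147, 152 and 166 in homozygous hearts. The wild-type pair was tight and all 6 deletion hearts were above it. Ulk2 rose by 0.83 ± 0.11 (SE, adjusted p = 0.000927) in homozygous and 0.80 ± 0.11 (SE, adjusted p = 0.00102) in heterozygous hearts. Ulk1 (ENSMUSG00000029512.11, chr5:110784488-110810097, minus strand) stood at 109 and 77.4 CPM in wild type, 139, 152 and 149 in heterozygous and 168, 137 and 169 in homozygous hearts. Here too all deletion hearts were above both wild-type hearts, but the wild-type pair was wide, with wild type 2 the lower. Ulk1 rose by 0.76 ± 0.16 (SE, adjusted p = 0.00755) and 0.65 ± 0.16 (SE, adjusted p = 0.0144). Without wild type 2 the heterozygous value was 0.45 with an adjusted p of 0.0699. The remaining subunits, Atg13 and Atg101, which form a pair that recruits the kinase to the membrane, had values on the other side of 0 that did not pass the test. Atg13 was -0.34 ± 0.14 (SE, adjusted p = 0.101) and Atg101 -0.52 ± 0.19 (SE, adjusted p = 0.0626) in homozygous hearts. Without wild type 1 both were called lower there (-0.51, 0.0127, and -0.66, 0.0296), and without wild type 2 they were -0.096 and -0.32. DESeq2, limma-voom and a fit with a sex term each called 1 fall in this complex in homozygous hearts. After the correction Atg101 was 0.090 in homozygous and 0.25 in heterozygous hearts.

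In the class III PI3-kinase complex, which makes the phosphoinositide PI3P on the young membrane, 0 of 6 genes were called by edgeR in either genotype. With an unadjusted p under 0.05 there were 0 in homozygous and 1 in heterozygous hearts, and DESeq2 called 0 and 1. Pik3c3, the catalytic subunit, stood at 20.2 and 17.5 CPM in wild type, 20.1, 17.8 and 19.8 in heterozygous and 24.03, 18.9 and 21.5 in homozygous hearts. Its deletion hearts overlapped the wild-type pair. Becn1 (beclin 1, the regulatory core) was 0.019 in homozygous and 0.058 in heterozygous hearts on the log2 scale, and Pik3r4, the membrane-anchored subunit, was -0.0046 in homozygous and -0.12 in heterozygous. Atg14 and Uvrag, the alternative partners that direct the complex to autophagosomes or to endosomes, had 0.24 and 0.0079 in homozygous hearts. Ambra1, a beclin 1 partner, had the lowest values of the 6, -0.22 ± 0.11 (SE, adjusted p = 0.179) in homozygous and -0.32 ± 0.11 (SE, adjusted p = 0.0569) in heterozygous hearts. Exons of Becn1 share 43.9% of their bases with Cntd1 on the opposite strand and those of Uvrag 17.6% with another gene. The strand setting of the counting is not given in the sources used here, so these values are uncertain.

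Of the 5 genes of lipid supply and PI3P reading, 2 rose and 1 fell in homozygous hearts, and 1 rose and 1 fell in heterozygous hearts. Atg2a and Atg2b are paralogs that encode lipid transfer proteins bridging the endoplasmic reticulum and the growing membrane. Atg2a (ENSMUSG00000024773.15, chr19:6241668-6262335, plus strand) stood at 72.5 and 74.5 CPM in wild type, 56.6, 47.1 and 44.9 in heterozygous and 59.2, 50.4 and 55.3 in homozygous hearts. Atg2b (ENSMUSG00000041341.10, chr12:105616136-105685211, minus strand) stood at 32.7 and 30.1 CPM in wild type, 39.8, 44.99 and 40.02 in heterozygous and 42.6, 41.2 and 37.8 in homozygous hearts. All deletion hearts were below both wild-type hearts for Atg2a and above both for Atg2b. Atg2a fell, at -0.42 ± 0.13 (SE, adjusted p = 0.0372) in homozygous and -0.57 ± 0.13 (SE, adjusted p = 0.00992) in heterozygous hearts. Atg2b rose, at 0.37 ± 0.12 (SE, adjusted p = 0.0484) and 0.41 ± 0.12 (SE, adjusted p = 0.0333). The Atg2b calls were close to the threshold and did not hold without wild type 2 (adjusted p = 0.158 and 0.115), without any 1 of the 3 homozygous hearts (0.075 to 0.134 and 0.0511 to 0.0543) and without heterozygous 2 (0.058 and 0.0996) or heterozygous 3 (0.066 and 0.0585). The homozygous Atg2a call was lost without wild type 2 (0.147), any 1 homozygous heart (0.0559 to 0.124) or heterozygous 2 (0.0559). After the correction neither gene was called, with Atg2b at 0.073 and 0.16.

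Wipi1 (ENSMUSG00000041895.15, chr11:109573331-109611967, minus strand), which encodes a reader of PI3P, stood at 93.9 and 61.9 CPM in wild type, 97.2, 113 and 103 in heterozygous and 119.5, 114 and 131 in homozygous hearts. All deletion hearts were above both wild-type hearts, but heterozygous 1 exceeded wild type 1 by little. Wipi1 rose in homozygous hearts (0.64 ± 0.17 (SE, adjusted p = 0.0188)), a call that was lost without wild type 2 (0.40, adjusted p = 0.0826) or homozygous 3 (0.58, 0.0673). In heterozygous hearts it was 0.42 ± 0.17 (SE, adjusted p = 0.0857), and 0.76 with an adjusted p of 0.00187 without wild type 1. Wipi2, the paralog that recruits the conjugation machinery, was -0.098 in homozygous and -0.080 in heterozygous hearts. Atg9a, the lipid scramblase carried on small vesicles, was 0.42 ± 0.15 (SE, adjusted p = 0.0605) in homozygous hearts. It was called there after the correction (0.55, adjusted p = 0.0255) and without wild type 1 (0.70, 0.00186), and was 0.22 without wild type 2. Its exons share 31.8% of their bases with another gene on the same strand.

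Of the 9 tested conjugation genes 2 rose in each genotype and 0 fell. Atg5 (ENSMUSG00000038160.7, chr10:44268358-44364291, plus strand) encodes the protein that ATG12 is joined to and that directs lipidation of the ATG8 proteins. It stood at 13.6 and 12.3 CPM in wild type, 22.9, 20.8 and 26.03 in heterozygous and 19.9, 24.1 and 20.2 in homozygous hearts. The highest wild-type heart was 13.6 CPM and the lowest deletion heart 19.9. Atg5 rose by 0.72 ± 0.16 (SE, adjusted p = 0.00915) in homozygous and 0.84 ± 0.16 (SE, adjusted p = 0.00454) in heterozygous hearts. Atg4c (ENSMUSG00000028550.15, chr4:99193934-99259787, plus strand), one of 4 cysteine proteases that prime and release ATG8 proteins, is expressed at a low level, 4.01 and 3.81 CPM in wild type, 6.58, 5.95 and 7.9 in heterozygous and 7.05, 6.9 and 7.82 in homozygous hearts. All 6 deletion hearts were above both wild-type hearts, and the counts behind these values were 104 to 396 per library. Atg4c rose by 0.89 ± 0.22 (SE, adjusted p = 0.0143) and 0.80 ± 0.22 (SE, adjusted p = 0.0227). Without wild type 2 the adjusted p was 0.059 in homozygous and 0.0823 in heterozygous hearts. The homozygous call was also lost without homozygous 3 (0.0539) and the heterozygous call without heterozygous 3 (0.0775).

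The other conjugation genes did not pass the test in either genotype. Atg4b and Atg4d, the other tested proteases, were -0.089 and 0.084 in homozygous hearts. Atg7, the activating enzyme of both reactions, was -0.41 ± 0.17 (SE, adjusted p = 0.103). Atg3 and Atg10, the conjugating enzymes for ATG8 proteins and for ATG12, were 0.52 ± 0.21 (SE, adjusted p = 0.0875) and 0.19. Atg12, the protein joined to ATG5, stood at 33.3 and 22.1 CPM in wild type, 37.1, 37.5 and 36.02 in heterozygous and 41.9, 35.5 and 38.9 in homozygous hearts, which is 0.48 ± 0.17 (SE, adjusted p = 0.0558) in homozygous and 0.41 ± 0.17 (SE, adjusted p = 0.0928) in heterozygous hearts. Its deletion hearts were all above both wild-type hearts, without a call. Without wild type 1 both Atg12 (0.81 and 0.74, adjusted p = 0.00179 and 0.00311) and Atg3 (0.95 and 0.87, 0.00196 and 0.0034) were called, and without wild type 2 their homozygous values were 0.25 and 0.22. Atg16l1, which anchors the ATG12-ATG5 conjugate to the membrane, was 0.093 in homozygous and 0.036 in heterozygous hearts.

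The 5 tested ATG8 genes, whose products coat the autophagosome, had 0 rises and 1 fall in each genotype, of a different gene. Their median log2 fold change was -0.22 in homozygous and -0.21 in heterozygous hearts. In CPM per kb of transcript, the wild-type mean was 550 for Map1lc3a, 184 for Gabarap, 92.0 for Map1lc3b, 74.7 for Gabarapl1 and 40.1 for Gabarapl2, so the transcript of LC3A was the most abundant of the family. With the length of all exons in place of 1 transcript, Gabarapl1 (67.6) ranked above Map1lc3b (32.2), and Map1lc3a (517) was still the highest.

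Map1lc3a (ENSMUSG00000027602.9, chr2:155276297-155278073, plus strand) stood at 559 and 664 CPM in wild type, 453, 363 and 395 in heterozygous and 434, 399 and 505 in homozygous hearts. Every deletion heart was below both wild-type hearts. It fell in heterozygous hearts (-0.60 ± 0.15 (SE, adjusted p = 0.0165)) and was -0.45 ± 0.16 (SE, adjusted p = 0.051) in homozygous hearts. The heterozygous call was lost without wild type 2 (-0.44, adjusted p = 0.102), heterozygous 2 (0.0676) or heterozygous 3 (0.0566), and the homozygous value was called without wild type 1 (0.02). Gabarap (ENSMUSG00000018567.14, chr11:69991143-69994951, plus strand) stood at 205 and 292 CPM in wild type, 206, 189 and 199.8 in heterozygous and 174, 178 and 184 in homozygous hearts. The homozygous hearts were all below both wild-type hearts, whereas heterozygous 1 overlapped wild type 1. Gabarap fell in homozygous hearts (-0.47 ± 0.15 (SE, adjusted p = 0.0382)) and was -0.32 ± 0.15 (SE, adjusted p = 0.133) in heterozygous hearts. These values rest on wild type 2: without it they were -0.16 (adjusted p = 0.442) and -0.015, and without wild type 1 they were -0.70 (0.00115) and -0.55 (0.00496). The homozygous call was also lost without any 1 of the 6 deletion hearts (0.0559 to 0.106).

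The remaining ATG8 genes were not called. Map1lc3b, the LC3 form most often used as an autophagosome marker, stood at 260.0 and 225 CPM in wild type, 229.9, 208 and 212 in heterozygous and 221, 203 and 215 in homozygous hearts, and Gabarapl2 at 68.2 and 66.2 CPM in wild type, 56.6, 57.98 and 59.5 in heterozygous and 58.4, 54.5 and 59.9 in homozygous hearts. All deletion hearts were below both wild-type hearts for Gabarapl2, and all but heterozygous 1 for Map1lc3b, with log2 fold changes of -0.19 in homozygous and -0.16 in heterozygous hearts for Map1lc3b and -0.22 in homozygous and -0.21 in heterozygous for Gabarapl2. Gabarapl1 stood at 131 and 141 CPM in wild type, 145, 129 and 117 in heterozygous and 136, 116 and 159.6 in homozygous hearts. Its groups overlapped fully and its differences were 0.011 ± 0.15 (SE, adjusted p = 0.966) and -0.058 ± 0.15 (SE, adjusted p = 0.807). Exons of Gabarapl1 share 28.3% of their bases with a gene on the opposite strand.

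Cargo receptors, which bind ubiquitin-tagged cargo on one side and ATG8 proteins on the other, did not move as a group. Tax1bp1 (ENSMUSG00000004535.12, chr6:52713729-52766780, plus strand) stood at 103 and 93.1 CPM in wild type, 175, 173 and 159.6 in heterozygous and 165, 156 and 169.9 in homozygous hearts. The highest wild-type heart was 103 CPM and the lowest deletion heart 156. Tax1bp1 rose by 0.74 ± 0.12 (SE, adjusted p = 0.00188) in homozygous and 0.79 ± 0.12 (SE, adjusted p = 0.00126) in heterozygous hearts. Sqstm1 (ENSMUSG00000015837.15, chr11:50199366-50210827, minus strand) encodes p62, a receptor that autophagy itself degrades. It stood at 456 and 555 CPM in wild type, 348, 326 and 313 in heterozygous and 418, 316 and 386 in homozygous hearts. All 6 deletion hearts were below both wild-type hearts. Sqstm1 fell in heterozygous hearts (-0.62 ± 0.15 (SE, adjusted p = 0.0133)) and was -0.44 ± 0.15 (SE, adjusted p = 0.0553) in homozygous hearts. The heterozygous call was lost without wild type 2 (0.0934) or heterozygous 3 (0.0522), and without wild type 1 the homozygous value was called (0.0168). Exons of Sqstm1 share 17.3% of their bases with Mrnip on the opposite strand.

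Nbr1 (ENSMUSG00000017119.19, chr11:101552149-101581951, plus strand), a receptor related to p62, stood at 129 and 103 CPM in wild type, 156, 180.4 and 146 in heterozygous and 180.2, 138 and 156 in homozygous hearts. All deletion hearts were above both wild-type hearts, and homozygous 2 was the nearest to them. Nbr1 rose in heterozygous hearts (0.47 ± 0.16 (SE, adjusted p = 0.0485)), just past the threshold, and was 0.45 ± 0.16 (SE, adjusted p = 0.0583) in homozygous hearts. The heterozygous call was lost without wild type 2 (0.214) and without any 1 of the 6 deletion hearts (0.0533 to 0.141), and the homozygous value was called without wild type 1 (0.0161). Optn, which encodes optineurin, the receptor that also acts in PINK1-Parkin mitophagy, stood at 81.7 and 154 CPM in wild type, 96.9, 110.1 and 98.6 in heterozygous and 113, 95.9 and 126 in homozygous hearts. The wild-type pair spanned the whole range of the deletion hearts, and Optn was -0.076 ± 0.23 (SE, adjusted p = 0.834) and -0.21 ± 0.23 (SE, adjusted p = 0.525). Its direction turned with the wild-type heart used: 0.49 and 0.35 without wild type 2, not called, and -0.45 (0.0387) and -0.59 (0.0113) without wild type 1, both called.

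Of the 3 mitophagy receptors, which sit in the outer mitochondrial membrane and bind ATG8 proteins without ubiquitin, 1 rose in both genotypes. Fundc1 (ENSMUSG00000025040.13, chrX:17556564-17572325, minus strand) stood at 27.4 and 25.5 CPM in wild type, 44.1, 39.7 and 44.9 in heterozygous and 38.05, 45.2 and 45.7 in homozygous hearts. The lowest deletion heart was 38.0 CPM and the higher wild-type heart 27.4. Fundc1 rose by 0.70 ± 0.13 (SE, adjusted p = 0.00437) in homozygous and 0.70 ± 0.13 (SE, adjusted p = 0.00414) in heterozygous hearts. Bnip3, a receptor induced by hypoxia, stood at 181 and 247 CPM in wild type, 345, 269 and 253 in heterozygous and 272, 203 and 292 in homozygous hearts. It was the most spread of the 3: all 3 heterozygous hearts were above both wild-type hearts, but homozygous 2 lay between them. Bnip3 was 0.26 ± 0.20 (SE, adjusted p = 0.376) and 0.43 ± 0.21 (SE, adjusted p = 0.141), and 22.3% of its exon bases are shared with a gene on the opposite strand. Bnip3l, which encodes NIX, the receptor that clears mitochondria from maturing red cells, stood at 83.1 and 83.3 CPM in wild type, 89.2, 92.2 and 85.7 in heterozygous and 87.5, 83.9 and 93.1 in homozygous hearts. All 8 hearts lay within 83.1 to 93.1 CPM, and its differences were 0.084 ± 0.11 (SE, adjusted p = 0.599) and 0.099 ± 0.11 (SE, adjusted p = 0.532).

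**Figure D2:**
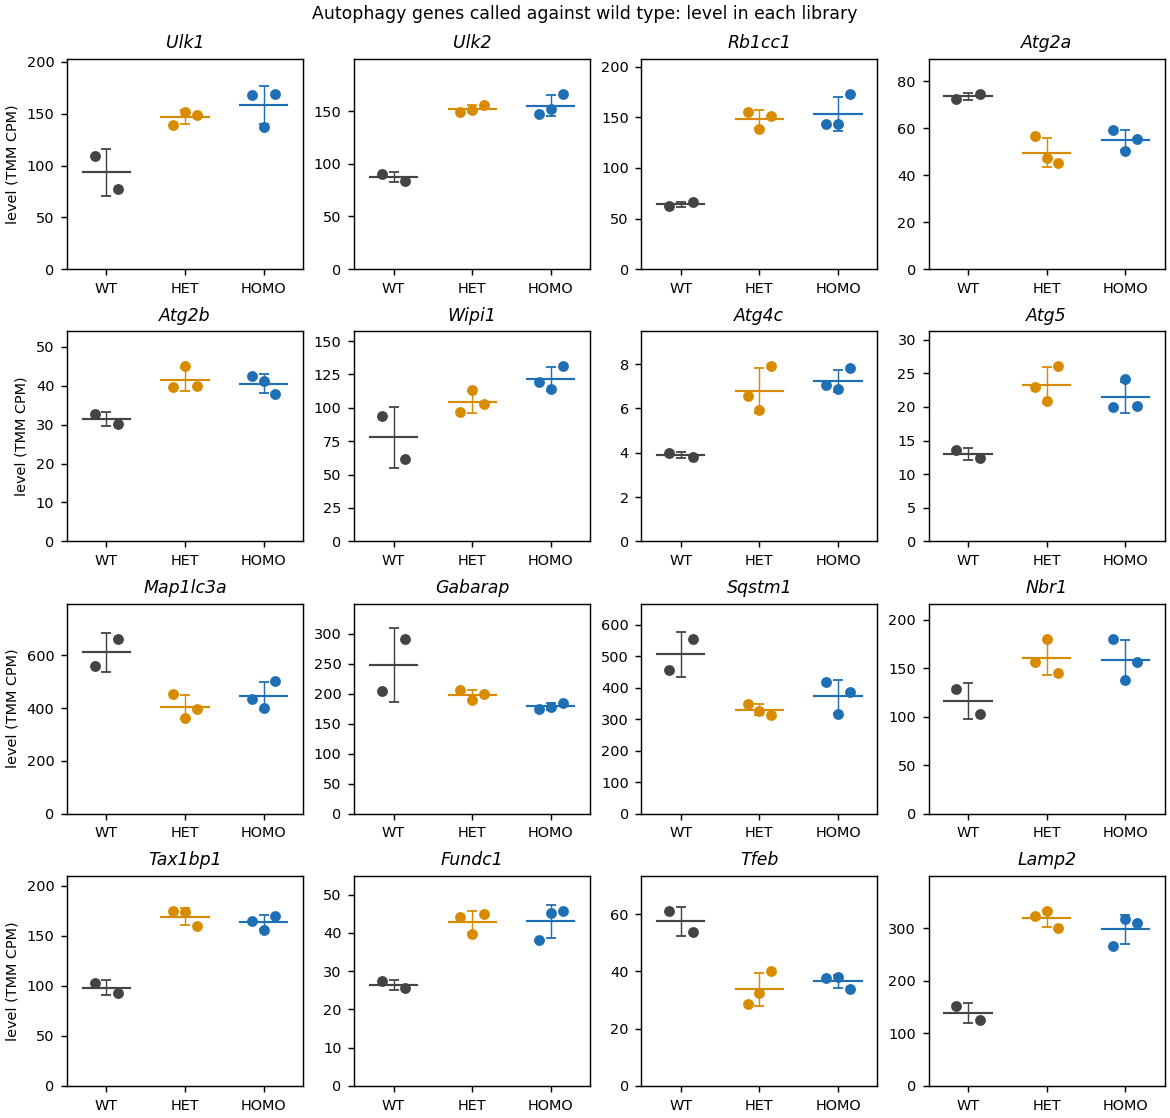
Level in each library (y axis, TMM-scaled CPM, from 0) of the 16 autophagy genes called in at least 1 deletion genotype, for wild-type (WT, n = 2), heterozygous (HET, n = 3) and homozygous (HOMO, n = 3) hearts. Points are hearts, lines the mean and bars the SD. The groups are far apart for Rb1cc1, Lamp2, Ulk2 and Tax1bp1, while the wild-type pair is wide for Wipi1, Gabarap and Ulk1.

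Of the lysosomal members, Lamp2 rose and the transcription factor gene Tfeb fell in both genotypes, while Lamp1 was not called. Lamp2 (ENSMUSG00000016534.15, chrX:38401357-38456454, minus strand) encodes a lysosomal membrane glycoprotein needed for fusion with autophagosomes and, in one splice form, for chaperone-mediated autophagy. It stood at 153 and 126 CPM in wild type, 324, 333 and 301 in heterozygous and 267, 318 and 309 in homozygous hearts. The lowest deletion heart, homozygous 1 at 267 CPM, was far above the higher wild-type heart at 153. Lamp2 rose by 1.10 ± 0.14 (SE, adjusted p = 0.000702) in homozygous and 1.19 ± 0.15 (SE, adjusted p = 0.000483) in heterozygous hearts, or 2.14-fold and 2.29-fold. Counts per gene do not tell its splice forms apart. Lamp1, its paralog and the more abundant of the pair, stood at 549 and 567 CPM in wild type, 459.8, 498 and 485 in heterozygous and 505, 491 and 468 in homozygous hearts. All deletion hearts were below both wild-type hearts by a small margin, and its differences were -0.19 ± 0.12 (SE, adjusted p = 0.255) and -0.22 ± 0.12 (SE, adjusted p = 0.207). Per kb of transcript, Lamp1 was at 250.4 CPM and Lamp2 at 63.9 in wild type, against 219 and 136 in homozygous hearts.

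Tfeb (ENSMUSG00000023990.18, chr17:47737030-47792419, plus strand) encodes a transcription factor that drives genes of lysosomes and autophagy once it enters the nucleus. It stood at 61.1 and 53.8 CPM in wild type, 28.8, 32.5 and 40.2 in heterozygous and 37.6, 37.96 and 33.9 in homozygous hearts. The lower wild-type heart was 53.8 CPM and the highest deletion heart 40.2. Tfeb fell, at -0.65 ± 0.15 (SE, adjusted p = 0.0101) in homozygous and -0.76 ± 0.15 (SE, adjusted p = 0.00486) in heterozygous hearts, and without wild type 2 it was -0.71 (adjusted p = 0.0216) and -0.82 (0.00986). After the correction neither call held, at -0.20 (adjusted p = 0.371) and -0.28 (0.222). A transcript level does not show where the TFEB protein is.

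TFEB and related factors bind E-box sites with the core CACGTG. A longer form with a T before that core was searched as well. Promoters (RefSeq, GRCm38.p6, 250 bases before to 50 after the start) were found for 34 of the 41 genes, in 40 windows. Members are counted by gene and the background by window, so the counts and shares are unlike measures. Both strands were searched for both motifs, and every match of the longer one holds the core. The longer motif, TCACGTG, was present in the windows of 4 of these genes (Atg14, Atg3, Atg7 and Lamp1), and in 3.77% of 32851 windows of all genes. The core alone was present in 6 (also Atg5 and Bnip3), and in 7.15% of all windows. The 3 promoters shown are those of the lysosomal pair, which differ in their values, and of Atg5, the E-box gene that rose. They are written 5′ to 3′ on the gene's strand, with each E-box in capitals (the longer motif on either strand, or the core alone). They lie at chr8:13158911-13159210 (plus strand, Lamp1), chrX:38456411-38456710 (minus strand, Lamp2) and chr10:44268089-44268388 (plus strand, Atg5).
Lamp1: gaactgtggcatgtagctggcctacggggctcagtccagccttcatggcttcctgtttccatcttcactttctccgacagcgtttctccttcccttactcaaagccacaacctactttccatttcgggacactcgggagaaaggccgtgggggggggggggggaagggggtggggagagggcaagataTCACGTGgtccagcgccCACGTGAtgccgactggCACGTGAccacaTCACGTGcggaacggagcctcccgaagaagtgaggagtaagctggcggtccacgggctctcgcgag
Lamp2: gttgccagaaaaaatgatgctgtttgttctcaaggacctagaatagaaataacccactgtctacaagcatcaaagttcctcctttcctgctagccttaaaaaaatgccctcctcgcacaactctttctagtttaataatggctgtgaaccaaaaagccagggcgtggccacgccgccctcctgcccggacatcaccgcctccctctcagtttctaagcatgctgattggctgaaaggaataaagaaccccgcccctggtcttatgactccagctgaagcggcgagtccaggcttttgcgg
Atg5: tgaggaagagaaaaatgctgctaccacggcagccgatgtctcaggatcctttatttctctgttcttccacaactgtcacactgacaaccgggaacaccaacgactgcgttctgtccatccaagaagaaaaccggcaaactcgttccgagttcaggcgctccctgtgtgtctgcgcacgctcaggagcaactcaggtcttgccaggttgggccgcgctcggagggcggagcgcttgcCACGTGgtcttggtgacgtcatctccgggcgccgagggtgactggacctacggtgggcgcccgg
The Lamp1 window holds 4 copies of the longer motif and its gene did not pass the test. The Lamp2 window holds 0 and its gene rose, and the Atg5 window holds 1 copy of the core. Of the 6 genes with an E-box, Atg5 alone was called. Of all tested genes, 27.7% were called in homozygous and 28.0% in heterozygous hearts, and 6 genes are too few to compare with these shares. A match is a string of letters and not a measured binding site.

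Homozygous and heterozygous hearts did not differ detectably in any of these genes. Of 15075 tested genes 0 were called (a share of 0%), where 411 had an unadjusted p under 0.05 in edgeR, and 3 were called by DESeq2 and 0 by limma-voom. The lowest adjusted p of the 40 autophagy genes was 0.9996, and their differences ran from -0.18 to 0.31 on the log2 scale. The highest was Atg10, the only member with an unadjusted p under 0.05, at 0.31 (95% interval 0.0034 to 0.62), with levels of 21.6 and 21.4 CPM in wild type, 17.5, 22.4 and 19.3 in heterozygous and 22.5, 23.4 and 27.5 in homozygous hearts. For the genes called against wild type, the interval was -0.20 to 0.30 for Rb1cc1, -0.37 to 0.18 for Lamp2, -0.19 to 0.25 for Ulk2 and -0.19 to 0.41 for Tfeb. Over all members the intervals lay between -0.58 and 0.62, with a median width of 0.29 to either side. Differences within these intervals cannot be seen in this fit with 3 hearts a group. The fit gives each gene 1 spread for all genotypes. The wild type varied more than the deletion groups, so these intervals can be too wide.

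Across all tested genes, the fold changes against wild type followed the base composition of the transcripts, and the autophagy genes that rose had a lower median GC content than those that fell. Genes were placed in 10 bins of transcript GC content. In the bin of lowest GC (median 40.3%) the median log2 fold change was 0.50 in homozygous and 0.56 in heterozygous hearts, and in the bin of highest GC (median 60.1%) it was -0.43 and -0.46. The 11 autophagy genes that rose in either genotype had a median GC of 44.6% (38.8 to 60.9), and the 5 that fell had 60.0% (50.8 to 63.1). The median of the tested members was 50.7%, beside 50.5% for all tested genes. Median 3' UTR lengths were 1196 bases for the genes that rose, 501 for those that fell, 1150.5 for the tested members and 945 for all tested genes. Rb1cc1 (39.1%) and Fundc1 (38.8%) are among the members lowest in GC, and Tfeb (60.7%) and Map1lc3a (63.1%) among the highest. Ulk1 (60.9%) rose, whereas the bin of highest GC had a median below 0.

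**Figure D3:**
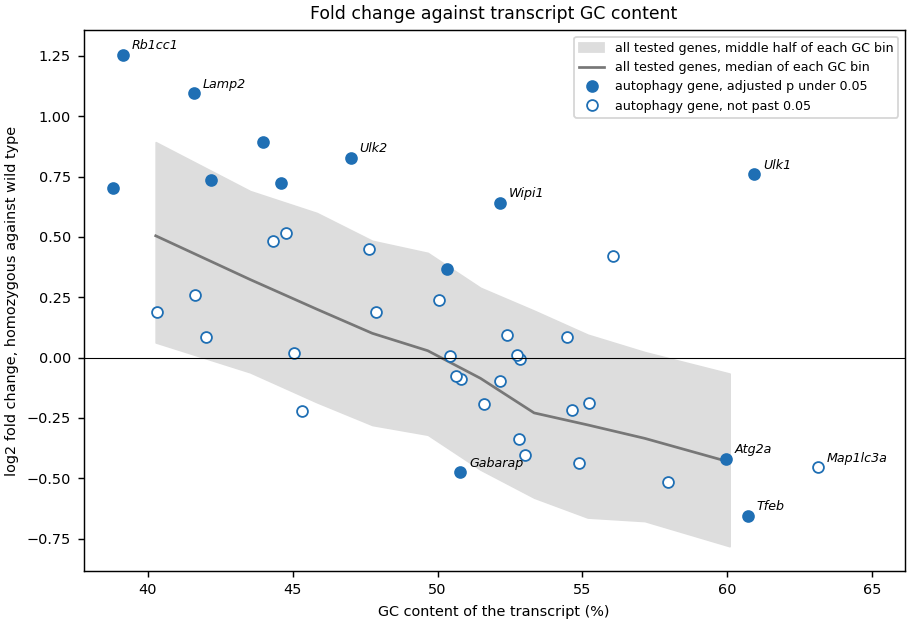
Log2 fold change in homozygous against wild-type hearts (y axis) by transcript GC content in percent (x axis). The line and band are the median and the middle 50% of all tested genes in 10 GC bins, and points are autophagy genes, filled where the adjusted p was under 0.05. Rb1cc1, Lamp2, Ulk2 and Wipi1 lie above it, and Ulk1 lies farthest above it at 60.9% GC.

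The gene property correction, which removes these trends from each library, called 9 members higher and 0 lower in homozygous hearts, and 6 higher and 0 lower in heterozygous hearts. Of these, 8 and 5 were also called in the fit without the correction, and the others were Atg9a in homozygous and Wipi1 in heterozygous hearts. In that fit 10.2% of 13915 genes were higher and 5.07% lower in homozygous hearts, and 9.38% and 4.99% in heterozygous hearts. Every fall among the members was thus lost. Beside Tfeb, Atg2a was -0.33 and -0.40, and Sqstm1 -0.068 and -0.23. Map1lc3a changed sign, to 0.20 and 0.078. Among the rises, Rb1cc1 went from 1.25 to 0.49 in homozygous hearts (0.0357), and to 0.43 in heterozygous hearts (0.0576). Lamp2 was 0.90 and 0.96, Ulk1 1.07 and 0.98, and Wipi1 0.90 and 0.68, all called. The transcript used for Ulk1 has 3581 bases, where all its exons hold 6488. Its 3' UTR of 81 bases is the shortest of the tested members. The GC content and the corrected values of Ulk1 rest on that transcript, and no other was tried. Fundc1 was 0.41 (0.0376) and 0.36 (0.0632), and Atg4c, Atg2b and Nbr1 were not called.

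Without wild type 2 the members called were 7 higher and 1 lower in homozygous hearts and 6 higher and 2 lower in heterozygous hearts. Over all genes in that fit, 10.1% were higher and 3.58% lower in homozygous hearts, and 10.5% and 4.62% in heterozygous hearts. Without wild type 1 they were 14 higher and 8 lower, and 14 higher and 7 lower, where 19.8% of all genes were higher and 16.6% lower in homozygous hearts, and 19.2% and 16.7% in heterozygous hearts. With 1 wild-type heart left, its spread is assumed to be that of the deletion groups. Ulk2, Atg5, Tax1bp1 and Lamp2 rose in both genotypes in the fit of all libraries, after the correction, and without wild type 2. With the correction and no wild type 2 together, Atg5 was 0.56 in homozygous and 0.64 in heterozygous hearts, not called. Tax1bp1 was 0.42 and 0.43, and Ulk2 0.48 in heterozygous hearts, also not called. Of the 40 tested members, Lamp2 alone was called in both genotypes under all 19 alternatives. Among genes named from the lists below, Prkaa2, Fnip1, Rragd, Foxo3, Ccpg1 and Pgam5 were too. The share of all tested genes that held in these fits was not counted.

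**Figure D4:**
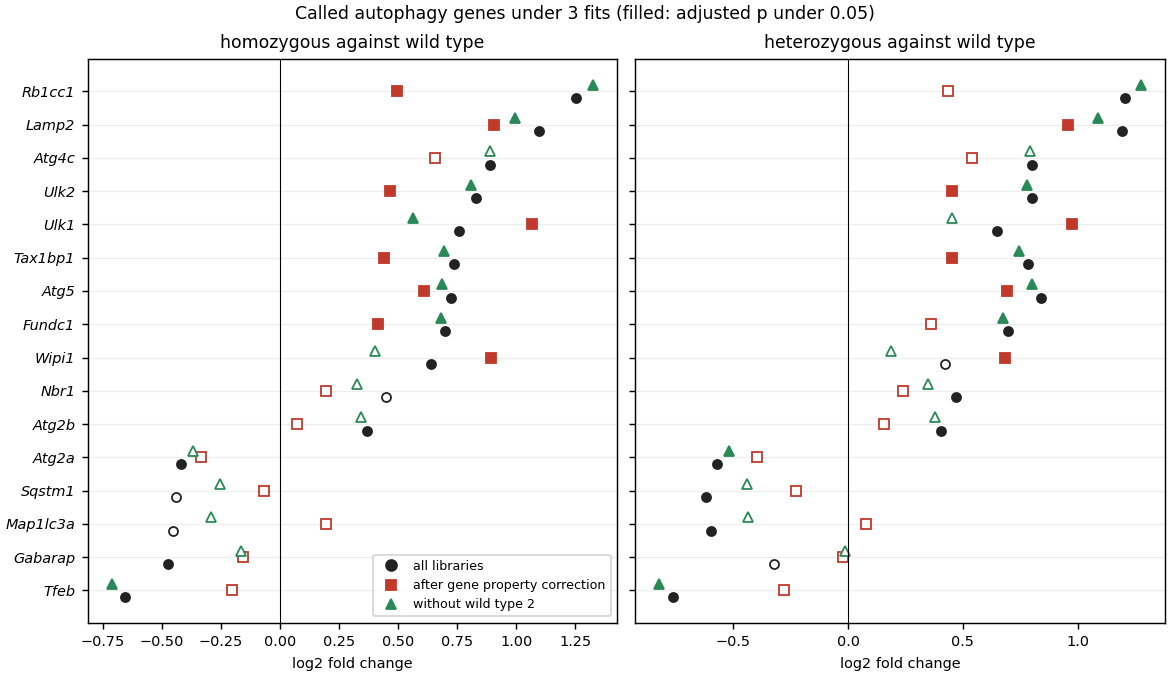
Log2 fold change (x axis) of the 16 called autophagy genes (y axis) in homozygous (left) and heterozygous (right) against wild-type hearts, with all libraries (black circles), after the correction for gene properties (red squares) and without wild type 2 (green triangles). Filled symbols have an adjusted p under 0.05. Lamp2, Ulk2, Tax1bp1 and Atg5 are filled in all 3 fits of both panels, and the squares of the genes that fell are open.

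Genes around the core machinery were read from 7 further lists, with the shares of all genes called (27.7% and 28.0%) as background. Of 20 kinases and regulators upstream of ULK1 (the nutrient sensor mTORC1, its TSC and folliculin regulators, and the energy sensor AMPK), 7 rose and 3 fell in homozygous hearts, and 6 rose and 2 fell in heterozygous hearts. Prkaa2, the AMPK catalytic subunit that prevails in muscle, stood at 81.7 and 62.6 CPM in wild type, 217, 258 and 242 in heterozygous and 271, 267 and 269.6 in homozygous hearts. All deletion hearts exceeded the higher wild-type heart, and Prkaa2 rose by 1.90 ± 0.15 (SE, adjusted p = 8.19e-05) and 1.73 ± 0.15 (SE, adjusted p = 0.000109). It was 1.15 and 0.96 after the correction, called in both. Fnip1, a folliculin partner, rose by 1.31 ± 0.14 (SE, adjusted p = 0.000295) and 1.28 ± 0.14 (SE, adjusted p = 0.000299), and Rragd, a GTPase that brings mTORC1 to the lysosome, by 1.45 ± 0.16 (SE, adjusted p = 0.000325) and 1.27 ± 0.16 (SE, adjusted p = 0.000552). AMPK subunits did not all move one way: Prkaa1 and Prkab2 rose in both genotypes, and Prkab1 and Prkag1 fell in both. Of these 4, Prkab2 alone was called in both genotypes after the correction and in both without wild type 2. These 4 were named after their values were seen.

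Among 6 other transcription factors of autophagy and lysosome genes, Foxo3 rose in both genotypes and 0 fell. Foxo3, a forkhead factor known to drive autophagy genes in muscle, stood at 19.9 and 7.73 CPM in wild type, 75.2, 79.9 and 79.9 in heterozygous and 105, 73.9 and 103 in homozygous hearts. It had the largest log2 fold change of the 6, 2.77 ± 0.36 (SE, adjusted p = 0.00102) and 2.51 ± 0.35 (SE, adjusted p = 0.0014). The wild-type hearts were themselves more than 2-fold apart, with wild type 2 the lower, and without that heart the values were 2.28 (adjusted p = 0.000187) and 2.01 (0.000301). After the correction they were 2.61 and 2.40. Mitf, a relative of TFEB, was 0.34 ± 0.14 (SE, adjusted p = 0.0942) in homozygous hearts, and Zkscan3, a repressor of autophagy genes, -0.36 ± 0.22 (SE, adjusted p = 0.24). Without wild type 1 Mitf was called in homozygous hearts (0.48, adjusted p = 0.029) and Zkscan3 in both (-0.65, 0.0377, and -0.72, 0.024), and without wild type 2 Zkscan3 was 0.03 and -0.05.

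Of 17 other core autophagosome genes, 6 rose and 1 fell in homozygous hearts, and 6 rose and 2 fell in heterozygous hearts. Wdfy3, a scaffold that links aggregates to the membrane, rose by 0.97 ± 0.15 (SE, adjusted p = 0.0019) and 1.04 ± 0.15 (SE, adjusted p = 0.00124). Retreg1 and Ccpg1, both receptors for the endoplasmic reticulum, rose by 1.17 and 0.67 in homozygous and 1.19 and 0.62 in heterozygous hearts. Retreg1 is listed in the table by its older symbol Fam134b and could not enter the correction. Of 14 other mitophagy genes, 5 rose and 1 fell in homozygous hearts, and 4 rose and 2 fell in heterozygous hearts. Fundc2, a paralog of Fundc1, rose by 0.79 ± 0.14 (SE, adjusted p = 0.00304) and 0.90 ± 0.14 (SE, adjusted p = 0.00158). After the correction it was 0.32 in homozygous hearts, not called (adjusted p = 0.0686), and 0.37 in heterozygous hearts (0.0465). Bcl2l13, a mitophagy receptor, rose by 0.97 and 1.01, and Pgam5, a mitochondrial phosphatase that acts on FUNDC1, by 0.79 and 0.89. Pink1 and Park2, the kinase and the ligase (Parkin) that tag mitochondria with ubiquitin, were not called in either genotype. Pink1 was -0.0085 ± 0.17 (SE, adjusted p = 0.978) in homozygous hearts, and Park2 -0.37 ± 0.23 (SE, adjusted p = 0.268). This pair was named after its values were seen.

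Fusion genes moved both ways, with 4 higher and 2 lower of 15 in homozygous hearts and 5 higher and 4 lower in heterozygous hearts. Stx17, the SNARE of the finished autophagosome, rose by 0.77 ± 0.13 (SE, adjusted p = 0.00286) and 0.66 ± 0.13 (SE, adjusted p = 0.00517). Its values after the correction were 0.24 and 0.12, neither called. Vps16 and Vps33a encode neighbouring subunits of the HOPS tethering complex. Vps16 fell, at -0.92 ± 0.19 (SE, adjusted p = 0.00604) and -0.96 ± 0.19 (SE, adjusted p = 0.00488), and Vps33a rose in homozygous hearts, at 0.56 ± 0.14 (SE, adjusted p = 0.0144). Without wild type 2 their homozygous values were -0.54 and 0.43, with adjusted p of 0.0649 and 0.0783, and Vps33a was not called without homozygous 3 (0.0572). In heterozygous hearts Vps33a was called without wild type 1 (0.0103).

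Of 22 lysosomal hydrolases and membrane proteins 2 rose and 5 fell in homozygous hearts, and 1 rose and 5 fell in heterozygous hearts. Over all tested genes 15.3% rose and 12.4% fell in homozygous hearts, and 15.2% and 12.8% in heterozygous hearts. With so few genes called, no direction of the list is read from them. The cathepsins Ctsz and Ctsa, both lysosomal peptidases, fell by 1.10 ± 0.16 (SE, adjusted p = 0.0013) and 0.55 ± 0.11 (SE, adjusted p = 0.00527) in homozygous hearts on the log2 scale. Neu1, the sialidase that CTSA protects, had -0.60 ± 0.12 (SE, adjusted p = 0.00607). In heterozygous hearts the 3 genes had -1.03, -0.62 and -0.50, all called. After the correction Neu1 was called in neither genotype (-0.24 and -0.11) and Ctsz in homozygous hearts alone (-0.54 and -0.45, adjusted p = 0.0276 and 0.0562). In the whole list the correction left 0 higher and 5 lower in homozygous and 1 higher and 1 lower in heterozygous hearts. Over all genes that fit gave 10.2% higher and 5.07% lower in homozygous hearts, and 9.38% and 4.99% in heterozygous hearts.

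The vacuolar proton pump, which acidifies the lysosome, had 2 rises and 4 falls among 14 tested subunits in homozygous hearts, and 3 rises and 4 falls in heterozygous hearts. Atp6v1g1, a stalk subunit, fell in both (-0.50 ± 0.11 (SE, adjusted p = 0.00805) and -0.36 ± 0.11 (SE, adjusted p = 0.0348)). Its heterozygous call was lost without wild type 2 (0.188) and without any 1 of the 6 deletion hearts (0.0571 to 0.102). Atp6v0d1, a subunit between the ring and the stalk, fell as well (-0.55 ± 0.13 (SE, adjusted p = 0.0132) and -0.57 ± 0.13 (SE, adjusted p = 0.0107)), with adjusted p of 0.0943 and 0.0737 without wild type 2 and 0.054 for the homozygous value without homozygous 2. Atp6v1b2, a nucleotide-binding subunit, rose (0.67 ± 0.16 (SE, adjusted p = 0.0108) and 0.73 ± 0.16 (SE, adjusted p = 0.00721)), with 0.0551 for the homozygous value without wild type 2. After the correction the pump had 2 rises and 0 falls in each genotype.

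**Figure D5:**
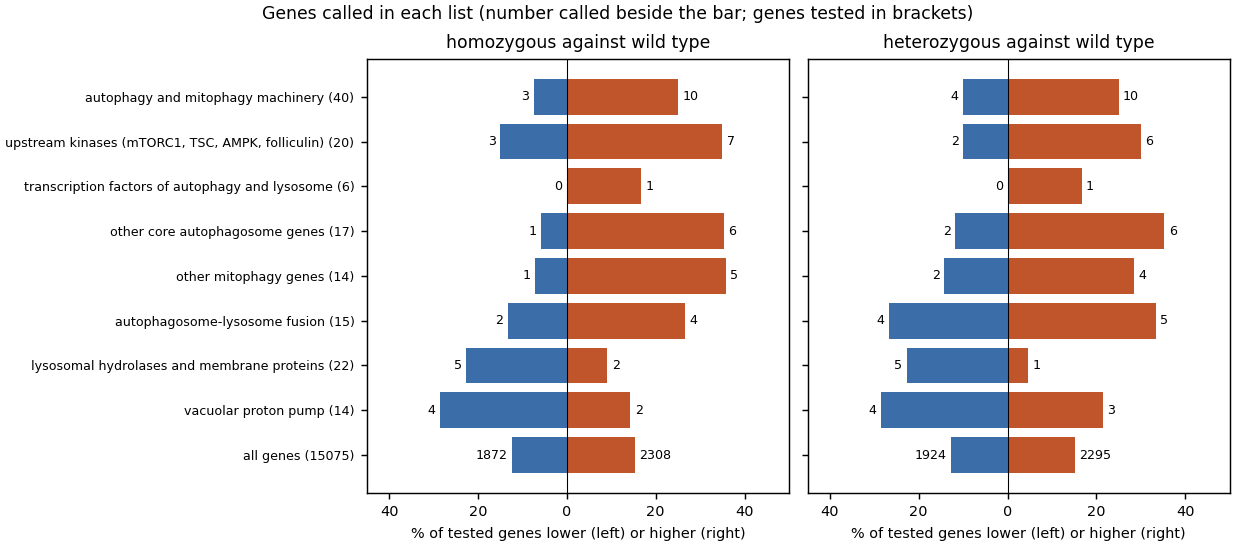
Share of tested genes called lower (blue, to the left) and higher (red, to the right) in percent (x axis) for the autophagy machinery, the 7 further lists and all genes (y axis), in homozygous (left) and heterozygous (right) against wild-type hearts. Numbers beside the bars are genes called. Upstream kinases, other core and other mitophagy genes have longer red than blue bars in both panels, while hydrolases and the proton pump have longer blue bars. The red bar of all genes is also the longer (15.3% against 12.4% in homozygous and 15.2% against 12.8% in heterozygous hearts). With so few genes called, no direction of a list is read from the bars.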

How the data were processed

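Whole-heart RNA of 8 mice of 1 litter was profiled with TruSeq libraries on a HiSeq instrument, per the labels' protocols. The authors deposited raw counts per gene symbol, 1 column per library. The submitters' processing notes name HISAT2, featureCounts (Subread), DESeq2 and Trimmomatic 0.36, with the mm10 build. For annotation, strand setting and reads with several matches, the setting is not stated in the labels or notes.

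Counts were tested in R 4.3.3 with edgeR 4.0.16: filterByExpr on genotype, TMM scaling, and 1 robust two-sided quasi-likelihood F test over all 8 libraries, adjusted by Benjamini-Hochberg over every tested gene, with calls at 0.05. Each gene has 1 spread for all genotypes, although the wild type varied more (biological coefficient of variation 0.327, against 0.202 in heterozygous and 0.180 in homozygous hearts). Adjusted p-values against wild type can thus be too small, and those between the deletion genotypes too large. They set a difference of group means against the spread between hearts of 1 litter, of which 2 are wild type. Positions, lengths and GC content came from GENCODE vM21 (1 transcript per gene, that with the longest coding sequence), in which 96.9% of symbols were found. Intervals are 95%.

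Alternatives were DESeq2 size factors, total counts, no filter on low counts, DESeq2 1.42.0, limma-voom (3.58.1), a non-robust fit, fits of only the groups compared, a replicate block, a sex term (Xist above 10 CPM), the correction for gene properties alone and without wild type 2, and each library left out. The correction removed, in each library, splines (4 df each) of GC content, 3' UTR length and transcript length as an offset for 13915 genes, and was first chosen after the data had been seen. Simulated counts were also fitted with edgeR, but no result of that run is given here. Nothing about the reliability of the calls or of the alternatives is drawn from it. The members and lists were chosen with earlier results of these data known. Values per library were given for members called in either genotype and for the ATG8 genes, Sqstm1, Bnip3, Bnip3l, Tfeb and Lamp2, with some others added where they show a contrast. Up to 3 genes of each further list were named by smallest p in homozygous against wild type.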

Additional observations from a re-analysis of the deposited data

How the results depend on the processing

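Fold changes of single genes under the alternatives were counted for the 40 tested members, Actn2 and the genes taken from the further lists by smallest p. The list genes were picked from these same data, so the counts do not describe genes in general. Of these fold changes against wild type, 2072 kept their direction and their side of the threshold. With the direction kept, 152 lost the call and 46 gained one. The other 82 changed sign, and are counted there alone also where a call was lost. All genes called in homozygous hearts numbered 4180, and 2119 after the gene property correction, 867 with that correction and no wild type 2, and 2135 to 5717 with 1 library left out. In heterozygous hearts they numbered 4219, and 2668 with only the groups compared, 1999, 838, and 2359 to 5634. Homozygous against heterozygous gave 2 without the low count filter, 3 with DESeq2, 1 with the correction, 1 with it and no wild type 2, and 0 to 1 with 1 library left out. Members higher in homozygous hearts numbered 7 to 14 with 1 library left out and 5 with the correction and no wild type 2. Members lower numbered 5 with total counts and with limma-voom, 6 with DESeq2, 1 without the filter, with only the groups compared and with the replicate block, 0 with the correction with or without wild type 2, and 1 to 8 with 1 library left out. In heterozygous hearts 6 were higher after the correction, 3 also without wild type 2, and 6 to 14 with 1 library left out, and 0, 0 and 2 to 7 were lower. The cause of these shifts was not tested.

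Signs changed after the correction in 10 of 40 members in each genotype. They changed in homozygous and heterozygous hearts for Atg101 (0.090 and 0.25), Becn1 (-0.33 and -0.30), Uvrag (-0.18 and -0.062), Map1lc3a (0.20 and 0.078), Map1lc3b (0.088 and 0.14), Bnip3l (-0.25 and -0.28) and Mitf (-0.11 and -0.25), in homozygous hearts for Pik3r4 (0.012), Atg4d (-0.0070), Optn (0.032) and Lamp1 (0.0025), and in heterozygous hearts for Pik3c3 (-0.048), Atg4b (-0.052), Atg12 (-0.018) and Gabarapl1 (0.24). The transcription factor Mitf is no member of the 40. With the correction and no wild type 2 they changed for Atg101 (0.12 and 0.28), Becn1 (-0.17 and -0.14), Uvrag (-0.20 and -0.075), Atg12 (-0.14 and -0.22), Map1lc3a (0.21 and 0.092), Gabarap (0.052 and 0.19), Optn (0.59 and 0.45), Bnip3l (-0.20 and -0.23), Lamp1 (0.035 and 0.019) and Mitf (-0.17 and -0.31), in homozygous hearts for Pik3r4 (0.080), Sqstm1 (0.053) and Zkscan3 (0.020), and in heterozygous hearts for Atg13 (0.040), Pik3c3 (-0.13), Wipi2 (0.014), Atg4b (-0.061), Map1lc3b (0.018) and Gabarapl1 (0.28). In homozygous hearts Gabarapl1 was -0.020 with the replicate block and -0.032 with the sex term, Becn1 -0.0015 with the replicate block, and Pik3r4 0.042 with it, 0.0081 with total counts, 0.022 without the filter and 0.0099 with only the groups compared. With 1 library left out Becn1 was -0.068 to 0.15, Pik3r4 -0.10 to 0.074, Uvrag -0.043 to 0.10, Wipi2 -0.20 to 0.058, Atg16l1 -0.022 to 0.26, Gabarapl1 -0.11 to 0.12, Optn -0.45 to 0.49 and Zkscan3 -0.65 to 0.031 in homozygous hearts. With 1 library left out Becn1 was -0.030 to 0.19, Pik3c3 -0.041 to 0.14, Wipi2 -0.19 to 0.073, Atg4b -0.0094 to 0.090, Atg16l1 -0.082 to 0.21, Gabarapl1 -0.11 to 0.025 and Optn -0.59 to 0.35 in heterozygous hearts. With the replicate block 3328 genes were called in homozygous and 3376 in heterozygous hearts, and members numbered 9 higher and 1 lower, and 7 higher and 4 lower. The heterozygous call of Actn2 was lost with the block (adjusted p = 0.0546). The replicate numbers are not known to pair the hearts: deviations of hearts with the same number correlated at -0.0228 to 0.177. Depth limits Atg4a, which was not tested, and Atg4c most.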
